A study of Mus musculus with 9 samples.

Results

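The proteasome genes described here were the 40 genes, of 22322 in the deposited tables, whose symbols begin with Psma, Psmb, Psmc or Psmd followed by a digit. The names cover 19 genes of the core particle (Psma and Psmb) and 21 genes under the names of the regulatory particle (Psmc and Psmd). RNA was sequenced from mouse R1 embryonic stem cells grown for 6 days in suspension without LIF, the cytokine that keeps such cells undifferentiated, so that they formed embryoid bodies. There were 3 libraries from cells with a hairpin against Pfkp (sh-Pfkp), 3 with a hairpin against Lin41, the protein of the gene Trim71 (sh-Lin41), and 3 with a control hairpin and a genotype labelled WT (sh-ctrl). Pfkp encodes the platelet form of phosphofructokinase, a glycolytic enzyme, and Lin41 is an RNA-binding protein of stem cells. The series title names Pfkp as a protein kinase that acts on Lin41 in stem cell differentiation. The labels describe 1 hairpin for each gene, name no rescue, and leave unsaid whether a line was 1 clone and whether replicate libraries were grown as separate cultures. The p-values below therefore rest on a spread between libraries that may be technical.

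The 26S proteasome is the machine that degrades proteins tagged with ubiquitin. Its core particle is a barrel in which an outer ring of α subunits (Psma genes) stands on each side of inner rings of β subunits (Psmb genes), and the β subunits β1, β2 and β5, encoded by Psmb6, Psmb7 and Psmb5, carry the cutting sites. The regulatory particle caps the barrel. Its base holds a ring of ATPases (Psmc genes) that unfold and push in the substrate, together with large scaffold subunits, and its lid (most Psmd genes) includes the enzyme Psmd14, which cuts ubiquitin off. Immune cells replace the cutting subunits by Psmb8, Psmb9 and Psmb10, the thymus uses Psmb11, and germ cells of the testis use the α subunit Psma8. Human pluripotent stem cells are known for high proteasome activity. Cells that lose proteasome activity raise the subunit genes through the transcription factor NFE2L1.

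By role, the 40 rows were 31 subunits that every cell uses (7 of the α ring, 4 β subunits without a cutting site, 3 cutting β subunits, 6 ATPases, 3 further base subunits and 8 lid subunits), 5 tissue-specific core subunits, 3 chaperones that help to assemble the base, and Psmc3ip. Psmc3ip, also called HOP2, is a meiotic recombination factor that only shares the name. Of the 40, 37 had enough counts to be tested, and Psmb8, Psmb9 and Psmb11 had not.

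Total counts lay between 15495194 and 20607683 per library. Pfkp had 103 ± 1.89 CPM in sh-Pfkp and 247 ± 1.83 CPM in sh-ctrl libraries, and Trim71 had 160 ± 4.89 CPM in sh-Lin41 and 269 ± 4.72 CPM in sh-ctrl libraries (SD, n = 3 each). In the other knockdown, Trim71 was at 352 ± 6.77 CPM in sh-Pfkp (log2 fold change against sh-ctrl 0.39, adjusted p = 4.06e-15) and Pfkp at 227 ± 5.39 CPM in sh-Lin41 (-0.12, adjusted p = 8.68e-05). CPM are read counts scaled to the TMM-adjusted library size. The 8 pluripotency markers (Pou5f1, Sox2, Nanog, Esrrb, Zfp42, Klf4, Dppa4 and Tdgf1) summed to between 3926 and 3978 CPM in sh-Pfkp, between 5150 and 5175 CPM in sh-Lin41 and between 4205 and 4251 CPM in sh-ctrl libraries, with no marker at 0. In sh-Pfkp against sh-ctrl 4 of these 8 rose and 4 fell, so the lower sum was not a fall of each marker. Over all genes tested there, 28.3% rose and 28.3% fell. In sh-Lin41 against sh-ctrl 6 of the 8 rose and 0 fell, where 26.9% of all genes tested rose and 27.3% fell. The 8 mesoderm and endoderm markers, which an embryoid body is labelled to form, summed to at most 15.5 CPM in sh-Pfkp, 15.7 CPM in sh-Lin41 and 22.1 CPM in sh-ctrl libraries. The 10 stromal markers summed to between 31.5 and 35.5 CPM in sh-Pfkp, between 9.36 and 10.9 CPM in sh-Lin41 and between 13.6 and 14.9 CPM in sh-ctrl libraries, and Dcn, Lum and Postn were at 0 in the sh-Lin41 and sh-ctrl libraries. The sum hides opposite directions, since of the 8 stromal markers tested 6 rose and 2 (Thy1 and Pdgfrb) fell in sh-Pfkp against sh-ctrl. The 8 blood markers summed to at most 13.1 CPM in sh-Pfkp, 15.4 CPM in sh-Lin41 and 15.6 CPM in sh-ctrl libraries, with Ptprc at 0 in sh-Lin41 and sh-ctrl. The part of these differences in the proteasome results was not tested. In bulk RNA, fewer cells of a type and less RNA per cell cannot be told apart.

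The subunits that every cell uses were expressed and lay within a narrow range per length. On the deposited FPKM scale, which divides by transcript length, their group means spanned 70.8 (Psmc2) to 199 (Psmd2) FPKM in sh-Pfkp, 62.1 (Psmc2) to 190 (Psmb3) FPKM in sh-Lin41 and 66.5 (Psmc2) to 214 (Psmb2) FPKM in sh-ctrl libraries. In sh-ctrl the highest was 3.22 times the lowest. The order of the α ring in sh-ctrl ran from Psma6 at 159 ± 5.95 FPKM (SD, n = 3), Psma3 at 158 ± 3.13, Psma4 at 153 ± 1.86 and Psma5 at 152 ± 3.66, whose values differ by little more than their spread, to Psma2 at 71.3 ± 1.79 FPKM. Psma1 (133 ± 5.36 FPKM) and Psma7 (144 ± 5.11 FPKM) lay between. Among the cutting subunits, Psmb5 was the lowest in each group, at 95.0 ± 1.36 FPKM in sh-Pfkp, 88.4 ± 2.55 FPKM in sh-Lin41 and 81.6 ± 3.03 FPKM in sh-ctrl, while Psmb6 and Psmb7 stood near each other at 134 ± 1.48 and 135 ± 3.23 FPKM in sh-ctrl. In the ATPase ring, Psmc1 was the highest and Psmc2 the lowest in each group. The base chaperones and tissue-specific subunits formed a lower layer. Psmd5, Psmd10 and Psmd9 had 24.5, 11.5 and 9.52 FPKM in sh-ctrl, Psma8 had 10.8 and Psmb10 had 6.03.

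**Figure D1:**
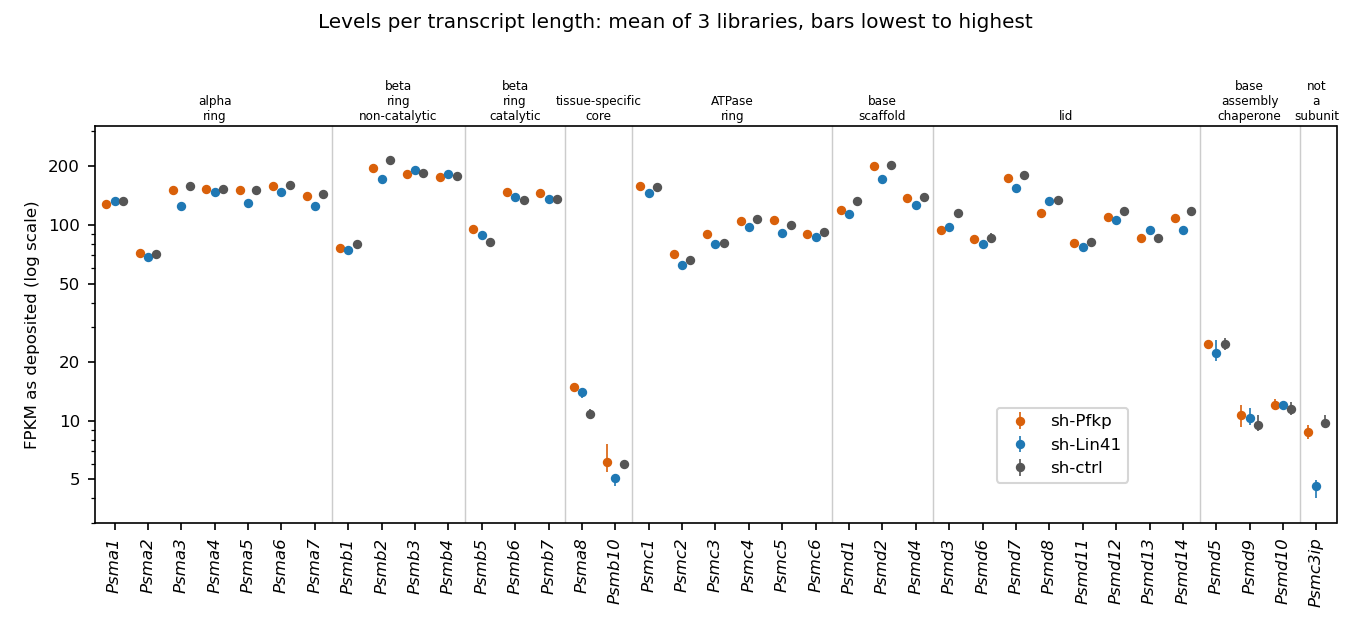
Deposited FPKM (log scale) of the 37 tested proteasome rows, ordered by role. Points are means of 3 libraries and bars run from the lowest to the highest library. The subunits that every cell uses lie between 62.1 and 214 FPKM, and the chaperones, Psma8, Psmb10 and Psmc3ip lie lower.

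Libraries of a group agreed closely on these genes. The median coefficient of variation over the 31 subunits was 2.23% in sh-Pfkp, 2.00% in sh-Lin41 and 2.36% in sh-ctrl, against 1.89%, 2.03% and 1.99% for the 2905 genes that were at least as abundant as the lowest of the 31. Fold changes of a few percent could therefore pass the test.

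Summed over the 31 subunits, proteasome RNA was lower in sh-Lin41 and about level in sh-Pfkp. The sum was 5889 ± 48.0 CPM in sh-Pfkp, 5352 ± 65.3 CPM in sh-Lin41 and 5859 ± 40.3 CPM in sh-ctrl (SD, n = 3). A sum of CPM weights long transcripts more, and it is given as a description without a test. The sh-Lin41 sum differed by -8.66% from sh-ctrl and the library ranges did not overlap, whereas the sh-Pfkp sum differed by 0.507% and the ranges overlapped. As a share of all counts, with no TMM factor, the 31 subunits held 0.576% in sh-Pfkp, 0.540% in sh-Lin41 and 0.592% in sh-ctrl, so the sign of the sh-Pfkp difference turned with the scaling. The classes did not move as 1 block. In sh-Pfkp the 3 cutting subunits summed to 380.0 ± 6.75 CPM, against 333 ± 5.41 CPM in sh-ctrl, a difference of 14.2%. The ATPase ring summed to 1020.0 ± 13.6 CPM in sh-Pfkp, against 965 ± 13.8 CPM in sh-ctrl, a difference of 5.70%, and the lid to 1454 ± 7.27 CPM in sh-Pfkp, against 1526 ± 5.97 CPM in sh-ctrl, a difference of -4.68%. As shares of all counts these differences were 10.5% for the cutting subunits, 2.25% for the ATPase ring and -7.79% for the lid. In sh-Lin41 the base scaffold differed most, with 1018 ± 13.2 CPM in sh-Lin41 against 1185 ± 20.5 CPM in sh-ctrl (-14.1%). The α ring differed by -9.47%, the lid by -9.35%, the ATPase ring by -6.00% and the β subunits without a cutting site by -5.85%, while the cutting subunits differed by 3.27%. The library ranges of sh-Lin41 and sh-ctrl did not overlap in any of these 6 sums.

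**Figure D2:**
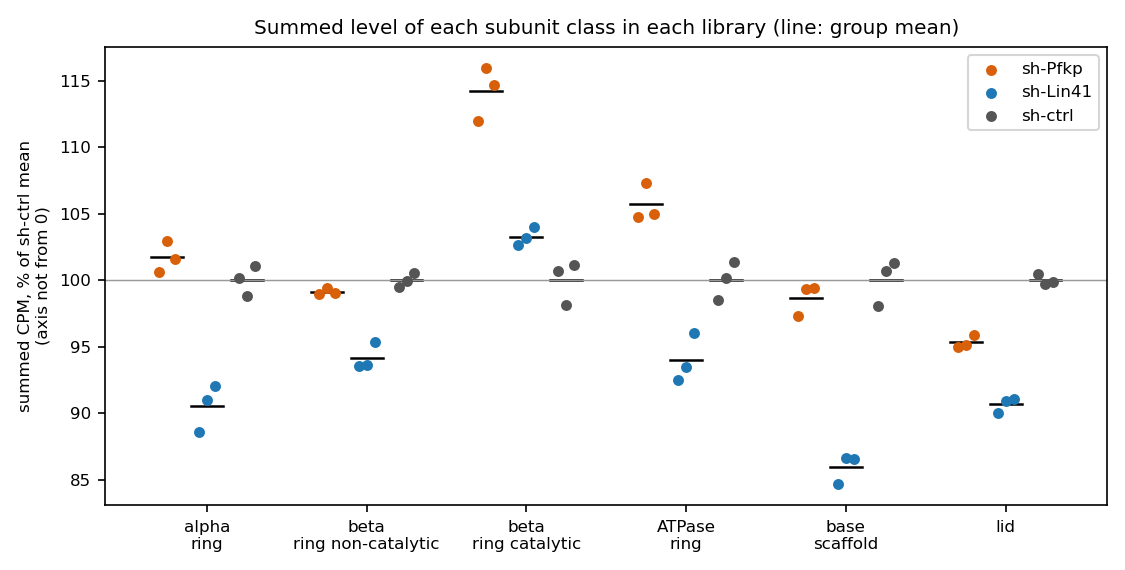
Summed CPM of 6 classes of subunit in each library, as a percentage of the sh-ctrl mean of that class (axis not from 0), with a line at each group mean. The cutting β subunits and the ATPases lie above 100% in sh-Pfkp, and of the 6 classes plotted, which hold the subunits that every cell uses, all but the cutting β subunits lie below 100% in sh-Lin41.

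In sh-Pfkp against sh-ctrl, a minority of subunits moved: the called genes rose mainly among the cutting subunits and the ATPases and fell mainly in the lid. A gene is called here when its adjusted p is under 0.05 in edgeR's quasi-likelihood test with Benjamini-Hochberg adjustment over all 13158 genes tested. Of the 37 tested rows, 8 rose and 7 fell. Over all genes tested, 28.3% rose and 28.3% fell, and among the 2905 genes at least as abundant as the lowest of the 31 subunits, 43.6% rose and 26.3% fell, so the totals were below those shares. The library ranges of sh-Pfkp and sh-ctrl did not overlap for 16 of the 37 rows, against 61% of all genes tested. The share of abundant genes without overlap was not computed. The median log2 fold change of the 37 rows was 0.025, against -0.0050 over all genes tested and 0.039 over the abundant genes. The sign of that median was not stable, since it was -0.023 when libraries were scaled by total counts alone and -0.015 on FPKM. Over all genes tested the median was -0.053 with that scaling and -0.039 on log2(FPKM + 1), below the proteasome median each time. The 7 falls included small ones, and the count was 3 without sh-ctrl library 2, 3 without sh-Pfkp library 2 and 3 with DESeq2.

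All 3 cutting subunits rose in sh-Pfkp, where 43.6% of the abundant genes rose. Psmb5 (ENSMUSG00000022193), which cuts after hydrophobic residues, had 86.3, 86.9 and 88.3 CPM in the sh-Pfkp libraries, 75.8, 79.5 and 80.4 CPM in sh-Lin41 and 71.2, 70.5 and 75.5 CPM in sh-ctrl. The 3 groups did not overlap, with sh-Pfkp highest and sh-ctrl lowest. The change in sh-Pfkp was log2 fold change 0.27, SE 0.037, adjusted p = 3.49e-07. Psmb6 (ENSMUSG00000018286), which cuts after acidic residues, had 117, 122 and 119.8 CPM in sh-Pfkp, 113, 108 and 109 CPM in sh-Lin41 and 105, 105 and 107 CPM in sh-ctrl. All sh-Pfkp libraries were above all others (log2 fold change 0.18, SE 0.031, adjusted p = 9.26e-06). Psmb7 (ENSMUSG00000026750), which cuts after basic residues, had 169, 177 and 173 CPM in sh-Pfkp, 153, 155 and 157 CPM in sh-Lin41 and 159, 151 and 154 CPM in sh-ctrl. Again the sh-Pfkp libraries stood above the others, and sh-Lin41 overlapped sh-ctrl (log2 fold change 0.16, SE 0.028, adjusted p = 9.21e-06). These 3 calls held under each alternative of scaling, filter, tool, unit and omitted library, but not against a minimum fold of 1.2. In sh-Lin41, Psmb5 had a log2 fold change of 0.12 (SE 0.038, adjusted p = 0.00957), a call lost without sh-ctrl library 1, without sh-ctrl library 2 and with DESeq2, and Psmb6 and Psmb7 had 0.058 (SE 0.031, adjusted p = 0.117) and 0.002 (SE 0.028, adjusted p = 0.958). In GENCODE M21, 4 processed pseudogenes carry the names of these 3 genes (Psmb5-ps, Psmb6-ps, Psmb6-ps2 and Psmb7-ps2), and no row of the deposited tables carries those names. Reads shared with such copies could be counted under the parent gene, and their part was not tested.

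The promoters of Psmb5 and Psmb6 are shown because both genes rose in sh-Pfkp and both hold a match to TGACNNNGC, the letters searched for the element bound by NFE2L1 and NFE2L2. Those of Psma3 and Psmd14, among the largest falls in sh-Lin41, are shown beside them. Each runs 5′ to 3′ on the gene's strand from 250 bases before the annotated start to 50 bases from the start on, in RefSeq on GRCm38.p6. Capitals mark TGACNNNGC and CCAAT (the NF-Y element) on either strand.
Psmb5, chr14:54617946-54618245, minus strand: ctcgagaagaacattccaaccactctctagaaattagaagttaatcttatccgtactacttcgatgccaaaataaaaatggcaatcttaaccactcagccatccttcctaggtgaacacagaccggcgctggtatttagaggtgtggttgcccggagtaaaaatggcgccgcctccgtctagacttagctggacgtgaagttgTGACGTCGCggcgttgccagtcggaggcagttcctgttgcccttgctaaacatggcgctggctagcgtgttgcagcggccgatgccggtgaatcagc
Psmb6, chr11:70525107-70525406, plus strand: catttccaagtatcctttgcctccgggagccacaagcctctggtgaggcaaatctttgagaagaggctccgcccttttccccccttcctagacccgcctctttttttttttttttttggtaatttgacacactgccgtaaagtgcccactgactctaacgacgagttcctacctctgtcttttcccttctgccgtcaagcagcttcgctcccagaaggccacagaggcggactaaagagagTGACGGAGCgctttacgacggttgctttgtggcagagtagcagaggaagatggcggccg
Psma3, chr12:70974373-70974672, plus strand: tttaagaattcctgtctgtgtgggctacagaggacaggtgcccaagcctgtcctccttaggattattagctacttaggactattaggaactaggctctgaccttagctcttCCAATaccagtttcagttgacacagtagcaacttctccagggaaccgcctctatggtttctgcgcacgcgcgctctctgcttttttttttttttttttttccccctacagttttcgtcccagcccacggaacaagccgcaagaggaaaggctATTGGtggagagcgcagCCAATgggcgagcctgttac
Psmd14, chr2:61711444-61711743, plus strand: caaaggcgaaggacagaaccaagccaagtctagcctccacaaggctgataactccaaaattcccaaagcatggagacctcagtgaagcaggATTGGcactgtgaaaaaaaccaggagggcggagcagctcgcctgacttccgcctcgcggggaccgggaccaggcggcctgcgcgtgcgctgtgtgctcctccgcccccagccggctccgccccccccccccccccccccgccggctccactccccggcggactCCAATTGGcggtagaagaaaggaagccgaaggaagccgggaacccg
In Psmb5 the match TGACGTCGC began 47 bases before the start, and in Psmb6 the match TGACGGAGC began 9 bases before it. Psma3 and Psmd14 each held 3 CCAAT matches and no TGACNNNGC, and in Psmd14 a pair of the CCAAT matches on opposite strands overlap. Promoters were given for 33 of the 40 members, in 35 rows. Psma8, Psmb1, Psmb2, Psmb7, Psmc3, Psmd3 and Psmd7 were not among them. TGACNNNGC stood in 5 of the 35 rows (14.29%), those of Psmb5, Psmb6, Psmc6, Psmd9 and Psmd12, against 12.39% of 32851 rows of the same length. In sh-Pfkp against sh-ctrl, Psmd12 fell, and Psmc6 and Psmd9 were not called. Psmc1, Psmc2 and Psmc5 rose in sh-Pfkp and held no match, and Psma8, Psmb7 and Psmc3 also rose but could not be searched. CCAAT stood in 14 of the 35 (40%), against 37.41%. The 2 motifs were searched without regard to overlap with each other. A match of letters is a description and not a measured binding site.

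In the ATPase ring, 4 of 6 genes (66.7%) rose in sh-Pfkp and none of the 6 fell, where 43.6% of the abundant genes rose and 26.3% fell. Psmc3 (ENSMUSG00000002102; Rpt5) had 137, 142 and 136 CPM in sh-Pfkp, 125, 120.2 and 125 CPM in sh-Lin41 and 122, 123 and 122 CPM in sh-ctrl. Its sh-Pfkp libraries were above all others (log2 fold change 0.18, SE 0.03, adjusted p = 8.31e-06). Psmc2 (Rpt1) had 128, 129.6 and 129 CPM in sh-Pfkp, 105, 109.8 and 113 CPM in sh-Lin41 and 117, 114 and 121 CPM in sh-ctrl. Psmc5 (Rpt6) had 139, 149 and 140.4 CPM in sh-Pfkp, 120.4, 118 and 119 CPM in sh-Lin41 and 127, 129 and 134 CPM in sh-ctrl. Psmc1 (Rpt2), whose tail helps to open the gate of the core, had 249.5, 257 and 262 CPM in sh-Pfkp, 226, 228 and 235 CPM in sh-Lin41 and 243, 244 and 249 CPM in sh-ctrl. In these 3 genes sh-Pfkp was highest, sh-ctrl lay between and sh-Lin41 was lowest, with no overlap, although for Psmc1 the lowest sh-Pfkp and the highest sh-ctrl library were within 1 CPM. Their log2 fold changes in sh-Pfkp were 0.14 (SE 0.032, adjusted p = 0.000552) for Psmc2, 0.14 (SE 0.031, adjusted p = 0.000429) for Psmc5 and 0.061 (SE 0.024, adjusted p = 0.0326) for Psmc1, and in sh-Lin41 -0.10 (SE 0.032, adjusted p = 0.00864), -0.13 (SE 0.032, adjusted p = 0.00123) and -0.097 (SE 0.024, adjusted p = 0.00126). Both comparisons use the same sh-ctrl libraries. The direct comparison of sh-Pfkp with sh-Lin41 gave 0.24 (SE 0.032, adjusted p = 1.32e-07) for Psmc2, 0.26 (SE 0.031, adjusted p = 1.41e-08) for Psmc5 and 0.16 (SE 0.024, adjusted p = 1.53e-06) for Psmc1. The rise of Psmc1 in sh-Pfkp was lost under total-count scaling, on FPKM, with DESeq2 and without sh-ctrl library 1 or 2 or sh-Pfkp library 2 or 3, and the fall of Psmc2 in sh-Lin41 was lost without sh-ctrl library 3 or sh-Lin41 library 1. Psmc4 and Psmc6 were not called in sh-Pfkp (0.0086 and 0.024) and fell in sh-Lin41, at -0.14 (SE 0.032, adjusted p = 0.000383) for Psmc4 and -0.076 (SE 0.025, adjusted p = 0.0119) for Psmc6, and the call of Psmc6 was lost without sh-ctrl library 2 or sh-Lin41 library 1.

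In the lid, 4 of 8 genes (50%) fell in sh-Pfkp and none rose, where 26.3% of the abundant genes fell and 43.6% rose. Of the 3 base scaffold subunits 1 fell (33.3%), near that share of falls. Psmd3 (ENSMUSG00000017221; Rpn3), a structural lid subunit, had 206, 202 and 209 CPM in sh-Pfkp, 205, 208 and 209 CPM in sh-Lin41 and 244, 241 and 248 CPM in sh-ctrl. Both knockdowns were below every sh-ctrl library and overlapped each other. The log2 fold change was -0.25 (SE 0.024, adjusted p = 1.98e-10) in sh-Pfkp and -0.24 (SE 0.024, adjusted p = 4.62e-10) in sh-Lin41, and the direct difference was -0.012 (SE 0.024, adjusted p = 0.691). Psmd8 (ENSMUSG00000030591; Rpn12), the last subunit to join the lid in yeast, had 158, 163 and 168 CPM in sh-Pfkp, 182, 179 and 186 CPM in sh-Lin41 and 183, 182 and 186 CPM in sh-ctrl. Here sh-Pfkp stood below the other groups, at -0.18 (SE 0.027, adjusted p = 2.02e-06) against sh-ctrl and -0.16 (SE 0.027, adjusted p = 6.27e-06) against sh-Lin41. Psmd1 (Rpn2), a scaffold of the base, had 382, 378 and 379 CPM in sh-Pfkp, 348, 354 and 349 CPM in sh-Lin41 and 392, 416 and 418 CPM in sh-ctrl. The 3 groups stood apart, with sh-Lin41 lowest, and the change in sh-Pfkp was -0.11 (SE 0.022, adjusted p = 0.000133). Smaller falls in sh-Pfkp were those of Psmd14 (-0.067, SE 0.026, adjusted p = 0.0305), Psmd12 (-0.061, SE 0.026, adjusted p = 0.0423) and the β subunit Psmb2 (-0.078, SE 0.027, adjusted p = 0.0134). Psmd12 lost its call under 14 of the 19 alternatives, among them the omission of any library but sh-Pfkp library 3, and was at -0.036 without sh-Pfkp library 1. Psmd14 lost its call under 8, among them the omission of any sh-Pfkp library or of sh-ctrl library 2 or 3. Psmb2 lost its call under 5, among them without sh-ctrl library 1 or 2 or sh-Pfkp library 2. In the α ring, no gene of 7 was called in sh-Pfkp, with log2 fold changes between -0.014 and 0.045.

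**Figure D3:**
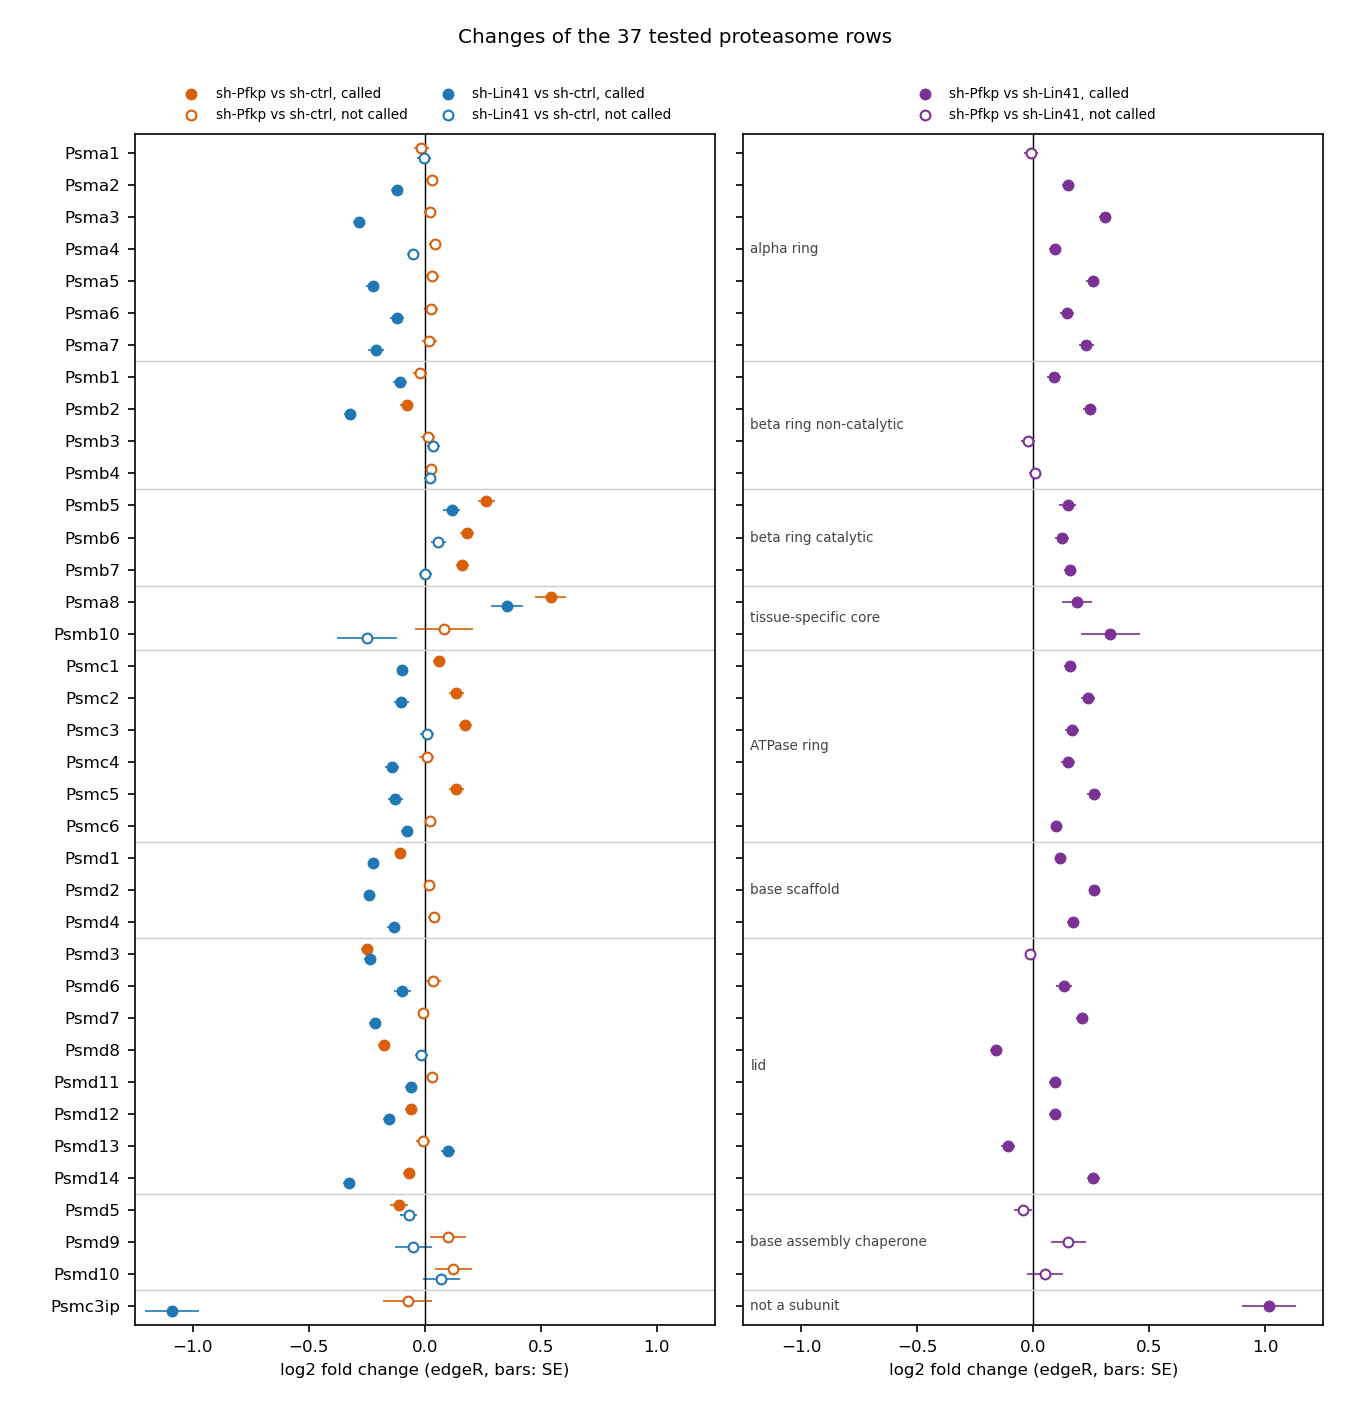
Log2 fold change with SE of the 37 tested rows, grouped by role: sh-Pfkp and sh-Lin41 against sh-ctrl on the left and sh-Pfkp against sh-Lin41 on the right. Filled points passed an adjusted p of 0.05 in edgeR's test. The cutting β subunits and 4 ATPases lie to the right in sh-Pfkp, and most filled points of sh-Lin41 lie to the left.

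In sh-Lin41 against sh-ctrl, most subunits fell by a small amount. Of the 37 tested rows, 22 fell and 3 rose, where 27.3% of all genes tested fell and 26.9% rose, and 42.7% of the abundant genes fell and 32.2% rose. The library ranges of sh-Lin41 and sh-ctrl did not overlap for 26 of the 37 rows, against 59% of all genes tested. That share was not computed over the abundant genes, so this count is not set against genes of like level. Among the 31 subunits that every cell uses, 21 fell (67.7%) and Psmb5 and Psmd13 rose. The median log2 fold change of the 37 rows was -0.10, against 0.0043 over all genes tested and -0.028 over the abundant genes. The falls covered 7 of the 14 core subunits and 14 of the 17 regulatory subunits. Tested against a minimum fold of 1.2, the calls were Psmb2, Psmd14 and Psmc3ip. A gene that misses this test is not shown to have changed by less than that fold. Psma3, at a log2 fold change of -0.28, was not called in it (adjusted p = 0.311).

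Among lid subunits, 6 of 8 fell in sh-Lin41, where 42.7% of the abundant genes fell. Psmd14 (ENSMUSG00000026914; Rpn11), the enzyme that removes ubiquitin chains as the substrate enters, had 172, 173 and 169 CPM in sh-Pfkp, 143, 141 and 146 CPM in sh-Lin41 and 177, 181 and 180.5 CPM in sh-ctrl. Every sh-Lin41 library was below every other library (log2 fold change -0.33, SE 0.027, adjusted p = 4.22e-12). Psmd3, given above, Psmd7 (-0.22, SE 0.025, adjusted p = 8.97e-09), Psmd12 (-0.16, SE 0.026, adjusted p = 5.1e-06), Psmd6 (-0.096, SE 0.035, adjusted p = 0.0213) and Psmd11 (-0.061, SE 0.026, adjusted p = 0.0424) also fell. The calls of Psmd6 and Psmd11 were lost with DESeq2 and without sh-Lin41 library 1, among other settings, and Psmd6 was at -0.055 without sh-ctrl library 3. Psmd13 (Rpn9) went the other way, with 121, 116 and 116 CPM in sh-Pfkp, 127, 126 and 127 CPM in sh-Lin41 and 121, 119.9 and 115 CPM in sh-ctrl. Its sh-Lin41 libraries stood above all others (log2 fold change 0.10, SE 0.03, adjusted p = 0.00562), and the call was lost without sh-ctrl library 3. Psmd8 was not called (-0.015, adjusted p = 0.668). In the base, the 3 scaffold and receptor subunits fell. Psmd2 (ENSMUSG00000006998; Rpn1), which docks ubiquitin and shuttle proteins, had 590.1, 609.8 and 611 CPM in sh-Pfkp, 488, 511 and 510.5 CPM in sh-Lin41 and 591, 595 and 600.0 CPM in sh-ctrl. The sh-Lin41 libraries were lowest and sh-Pfkp overlapped sh-ctrl (log2 fold change -0.24, SE 0.02, adjusted p = 6.53e-12). Psmd1 changed by -0.22 (SE 0.022, adjusted p = 3.91e-10) and Psmd4 (Rpn10), a ubiquitin receptor, by -0.13 (SE 0.027, adjusted p = 6.97e-05).

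In the core particle, 5 of 7 α subunits and 2 of 4 β subunits without a cutting site fell in sh-Lin41. Among the abundant genes 42.7% fell, so the 2 of 4 (50%) was near that share. Psmb2 (ENSMUSG00000028837; β4) had 174, 167 and 176 CPM in sh-Pfkp, 143, 146 and 147 CPM in sh-Lin41 and 183, 183 and 179 CPM in sh-ctrl. The groups did not overlap and sh-Lin41 was lowest (log2 fold change -0.32, SE 0.027, adjusted p = 9.03e-12). Psma3 (ENSMUSG00000060073; α7) had 198, 204 and 197 CPM in sh-Pfkp, 159, 159 and 165 CPM in sh-Lin41 and 193, 199.8 and 196 CPM in sh-ctrl. The sh-Pfkp and sh-ctrl libraries overlapped and the sh-Lin41 libraries lay below both (log2 fold change -0.28, SE 0.026, adjusted p = 8.65e-11). Psma5 (-0.22, SE 0.028, adjusted p = 4.00e-08) and Psma7 (-0.21, SE 0.033, adjusted p = 2.64e-06) followed, then Psma6 (-0.12, SE 0.03, adjusted p = 0.00109), Psma2 (-0.12, SE 0.027, adjusted p = 0.000346) and Psmb1 (-0.11, SE 0.03, adjusted p = 0.0026). The call of Psma2 was lost on FPKM. Psma1, Psma4, Psmb3 and Psmb4 were not called, at -0.0032, -0.05, 0.038 and 0.022 on the log2 scale.

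**Figure D4:**
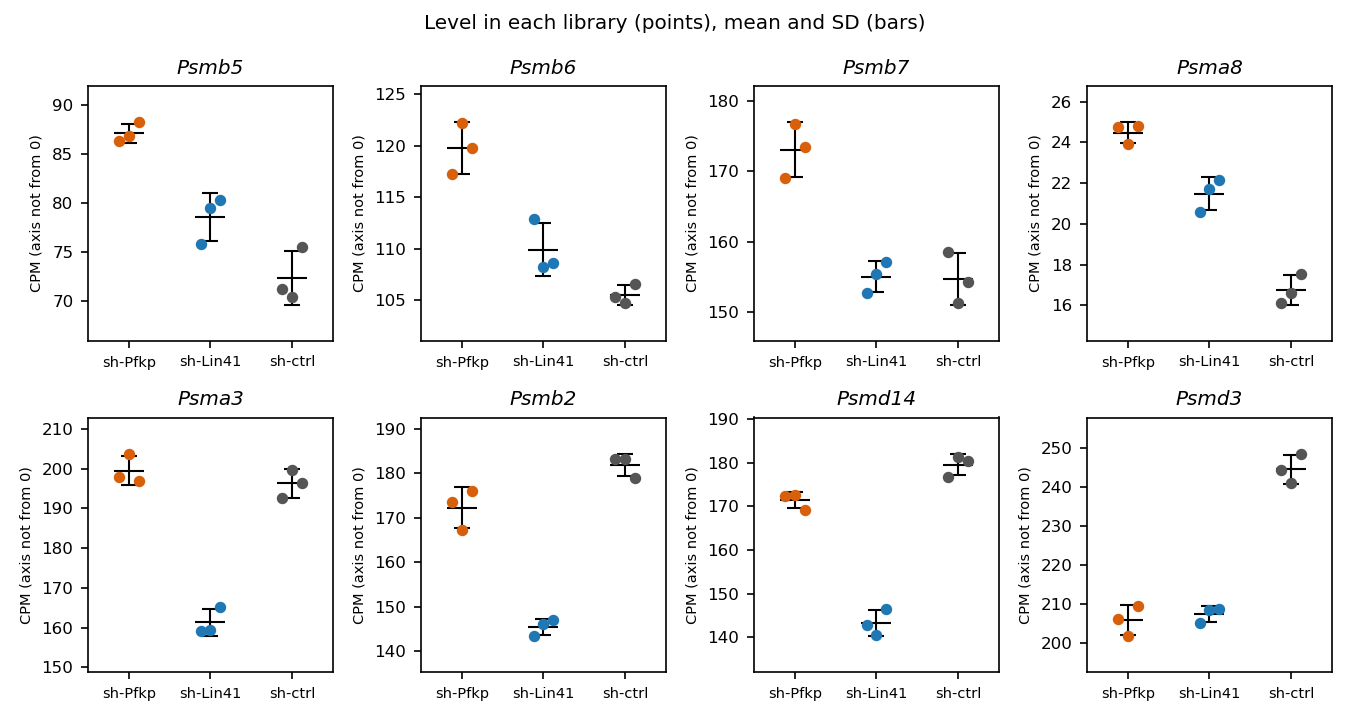
CPM of 8 proteasome genes in each library (points), with mean and SD of 3 libraries (bars); each axis has its own range and does not start at 0. Psmb5, Psmb6 and Psmb7 are highest in sh-Pfkp, Psma3, Psmb2 and Psmd14 are lowest in sh-Lin41, and Psmd3 is lower in both knockdowns than in sh-ctrl.

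Set against each other, sh-Pfkp had more proteasome RNA than sh-Lin41. Of the 37 tested rows, 28 were higher in sh-Pfkp and 2 were lower, where 27.4% of all genes tested were higher and 27.8% lower, and 51.3% of the abundant genes were higher and 24.2% lower. The library ranges of sh-Pfkp and sh-Lin41 did not overlap for 30 of the 37 rows, against 59.8% of all genes tested. Here too the share over the abundant genes was not computed. The median log2 fold change was 0.15, against -0.013 over all genes tested and 0.074 over the abundant genes. With libraries scaled by total counts alone the split was 21 higher and 5 lower, and with limma on log2(FPKM + 1) it was 20 higher and 2 lower. All 3 cutting subunits, all 6 ATPases, all 3 base scaffold subunits and 6 of 7 α subunits were higher. Among the 31 subunits the largest difference was that of Psma3 (0.31, SE 0.026, adjusted p = 9.31e-12), followed by Psmd2 (0.26, SE 0.02, adjusted p = 8.32e-13) and Psmc5. The lower ones were the lid subunits Psmd8, given above, and Psmd13 (-0.11, SE 0.03, adjusted p = 0.00246). This comparison uses the same knockdown libraries as those against sh-ctrl and is no further sample of them.

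The tissue-specific subunits were low. Psma8 (ENSMUSG00000036743), the α subunit of testis proteasomes, had 24.7, 23.9 and 24.8 CPM in sh-Pfkp, 20.6, 21.7 and 22.1 CPM in sh-Lin41 and 16.1, 16.6 and 17.6 CPM in sh-ctrl. The 3 groups did not overlap. It rose in sh-Pfkp (log2 fold change 0.54, SE 0.068, adjusted p = 4.09e-08) and in sh-Lin41 (log2 fold change 0.35, SE 0.069, adjusted p = 5.55e-05), the largest rise of a proteasome gene in each comparison. The difference between the knockdowns, 0.19 (SE 0.064, adjusted p = 0.0127), was lost under 6 of the 19 alternatives, among them without sh-Lin41 library 1. Psma8 is a close copy of Psma7, and how the authors' counting divided reads between the pair was not tested. Psma7 was not called in sh-Pfkp (0.019) and fell in sh-Lin41. Psmb10, the immune form of β2, had 7.37, 10.2 and 7.27 CPM in sh-Pfkp, 6.03, 6.85 and 6.88 CPM in sh-Lin41 and 8.07, 7.42 and 7.96 CPM in sh-ctrl. It was not called in sh-Pfkp (0.084, adjusted p = 0.589) or in sh-Lin41 (-0.25, adjusted p = 0.101), and sh-Pfkp differed from sh-Lin41 by 0.33 (SE 0.13, adjusted p = 0.025), a call lost under 7 of the 19 alternatives. Without sh-Pfkp library 2 the value was 0.16 (adjusted p = 0.315), and without sh-Lin41 library 1 it was 0.28 (adjusted p = 0.0973). Psmb8, the immune form of β5, had 0, 3 and 0 counts in sh-Pfkp, 1, 5 and 0 counts in sh-Lin41 and 0 counts in each sh-ctrl library, at most 0.241 CPM. Psmb9, the immune form of β1, had 2, 3 and 1 counts in sh-Pfkp, 5, 6 and 5 counts in sh-Lin41 and 3, 6 and 4 counts in sh-ctrl. Psmb11 had 1, 1 and 0 counts in sh-Pfkp, 1, 0 and 1 counts in sh-Lin41 and 0 counts in each sh-ctrl library. A count of 0 allows up to 3 counts of the library, counting error only, so no difference in Psmb11 was detectable at this depth. For Psmb8, sh-Lin41 library 2 alone, at 5 counts, stood above that limit, and no test was made.

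Psmc3ip (ENSMUSG00000019303) had the largest log2 fold change in size of the 37 tested rows. It had 10.2, 11.0 and 12.4 CPM in sh-Pfkp, 5.82, 4.68 and 6.06 CPM in sh-Lin41 and 12.8, 11.2 and 11.2 CPM in sh-ctrl. The sh-Lin41 libraries were below all others (log2 fold change -1.09, SE 0.12, adjusted p = 1.72e-09), and sh-Pfkp overlapped sh-ctrl (-0.074, adjusted p = 0.573). Of the base chaperones, Psmd5, which holds an ATPase pair before assembly, fell in sh-Pfkp on counts, with 78.4, 75.3 and 78.7 CPM in sh-Pfkp, 78.8, 77.4 and 83.3 CPM in sh-Lin41 and 81.5, 87.7 and 82.2 CPM in sh-ctrl (log2 fold change -0.11, SE 0.039, adjusted p = 0.0135). On FPKM its direction turned, to 0.0078 on the log2(FPKM + 1) scale, and the call was also lost with DESeq2, without sh-ctrl library 2 and without sh-Pfkp library 2. Psmd9 and Psmd10 were called in no comparison, at 0.10 and 0.12 in sh-Pfkp and -0.049 and 0.072 in sh-Lin41.

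Genes that work with the proteasome were read from lists grouped by role, with the log2 fold change given for each. Their counts stand against 28.3% of all genes rising and 28.3% falling in sh-Pfkp, and 26.9% rising and 27.3% falling in sh-Lin41. Among the abundant genes those shares were 43.6% and 26.3% in sh-Pfkp, and 32.2% and 42.7% in sh-Lin41. A count near these shares is no result about a list. Of 10 associated genes, 4 fell and 1 rose in sh-Lin41, the falls between the 27.3% of all genes and the 42.7% of abundant genes that fell. The deubiquitinases Uchl5 (-0.46, SE 0.035, adjusted p = 5.64e-13) and Usp14 (-0.24, SE 0.028, adjusted p = 1.01e-08), which bind the regulatory particle, fell, as did Adrm1 (-0.35, SE 0.035, adjusted p = 3.23e-10), the ubiquitin receptor Rpn13, and Txnl1 (-0.22, SE 0.03, adjusted p = 1.45e-07), a thioredoxin of the particle. Akirin2, which brings proteasomes into the nucleus, rose (0.14, SE 0.038, adjusted p = 0.00309). In sh-Pfkp, 4 of the 10 rose and 2 fell, the rises between the 28.3% of all genes and the 43.6% of abundant genes that rose. Ube3c (0.29, SE 0.025, adjusted p = 2.16e-11), a ubiquitin ligase on the proteasome, Zfand2a (0.39, SE 0.072, adjusted p = 2.44e-05), induced by protein stress, Akirin2 (0.27, SE 0.038, adjusted p = 2.97e-07) and Zfand5 (0.18, SE 0.038, adjusted p = 0.000159) rose, and Adrm1 (-0.22, SE 0.035, adjusted p = 2.62e-06) and Usp14 (-0.12, SE 0.028, adjusted p = 0.000593) fell.

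Of the core chaperones, 2 of 5 genes tested (40%, against 27.3% of all genes and 42.7% of the abundant genes) fell in sh-Lin41. The 5 together summed to at most 177 CPM in a library, so most were below the mean of 79.4 CPM that an abundant gene had at least. They were Pomp (-0.15, SE 0.037, adjusted p = 0.00067), which helps to build the β rings, and Psmg1 (-0.16, SE 0.05, adjusted p = 0.00737), which helps to form the α ring, and the call of Pomp was lost on FPKM. None of the 5 was called in sh-Pfkp, where Pomp, the most abundant, had a log2 fold change of 0.06, although 1 of the 5 fell under total-count scaling. Among activators and the inhibitor, 5 of 6 listed genes were tested. Psme3, the nuclear activator PA28γ, fell in sh-Lin41 (-0.28, SE 0.024, adjusted p = 1.29e-11). Psme4, the activator PA200, rose in sh-Pfkp (0.15, SE 0.02, adjusted p = 1.55e-07) and in sh-Lin41 (0.15, SE 0.02, adjusted p = 2.16e-07). Psmf1, the inhibitor PI31, rose in sh-Pfkp (0.26, SE 0.057, adjusted p = 0.000241) and in sh-Lin41 (0.16, SE 0.057, adjusted p = 0.0189). On log2(FPKM + 1) the Psmf1 values were 0.064 in sh-Pfkp and 0.012 in sh-Lin41 and neither was called, and in sh-Lin41 the call was also lost with DESeq2 and without sh-Lin41 library 1 or 2 or sh-ctrl library 3.

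The shuttle receptors carry tagged proteins to the proteasome, and values are given for some of them, with no count for the list. In sh-Lin41, Rad23b (-0.27, SE 0.018, adjusted p = 4.25e-14), Ubqln1 (-0.20, SE 0.025, adjusted p = 3.17e-08) and Ubqln2 (-0.11, SE 0.033, adjusted p = 0.00863) fell, and Ddi2 (0.14, SE 0.032, adjusted p = 0.00053), the protease that activates NFE2L1, rose, a call lost on FPKM. In sh-Pfkp, Ddi2 rose (0.22, SE 0.032, adjusted p = 3.94e-07) and Ubqln1 fell (-0.077, SE 0.025, adjusted p = 0.0087), and the call of Ubqln1 was lost without sh-Pfkp library 2 or 3 or sh-ctrl library 2. In sh-Lin41, 26.9% of all genes rose and 27.3% fell, and 32.2% of the abundant genes rose and 42.7% fell. Of 10 genes of the NFE2L1 pathway, 5 rose (50%) and 3 fell (30%) there. The rises were those of Syvn1 (0.30, SE 0.059, adjusted p = 5.71e-05), a ligase of the endoplasmic reticulum, Ddi2, Mafg (0.13, SE 0.042, adjusted p = 0.00764), Nfe2l1 itself (0.062, SE 0.025, adjusted p = 0.0332) and Nfe2l2 (0.09, SE 0.038, adjusted p = 0.044), and the count was 3 with DESeq2 and 2 on FPKM. Nfe2l1, Nfe2l2 and Mafg each lost the call without sh-Lin41 library 1, and Mafg was at 0.086 without sh-ctrl library 3. The falls were those of Vcp (-0.13, SE 0.019, adjusted p = 8.11e-07), the segregase that extracts NFE2L1 from the membrane, Keap1 (-0.34, SE 0.069, adjusted p = 0.00011) and Mafk (-0.76, SE 0.15, adjusted p = 5.89e-05). In sh-Pfkp, 2 of the 10 rose (20%) and 1 fell (10%), both below the 28.3% over all genes each way. Mafg (0.30, SE 0.042, adjusted p = 3.02e-07) and Ddi2 rose and Bach1, a repressor at the same DNA element, fell (-0.21, SE 0.066, adjusted p = 0.00897). The other 7, Nfe2l1 and Nfe2l2 among them, were not called in sh-Pfkp. The call of Mafg was lost on FPKM and that of Bach1 with DESeq2 and without sh-ctrl library 3 (-0.14).

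Of 9 tested genes of interferon signalling and antigen presentation, the programme that turns on the immune subunits, 2 rose and 2 fell in sh-Pfkp (22.2% each way, below the 28.3% over all genes). There, B2m (1.08, SE 0.18, adjusted p = 5.19e-06) and Irf9 (0.33, SE 0.089, adjusted p = 0.00195) rose and Stat2 (-0.64, SE 0.065, adjusted p = 7.7e-10) and H2-K1 (-0.66, SE 0.14, adjusted p = 0.000111) fell. In sh-Lin41, for which no count is given, H2-D1 (0.98, SE 0.15, adjusted p = 9.74e-07) and B2m (0.50, SE 0.19, adjusted p = 0.0255) rose and Irf1 (-0.56, SE 0.11, adjusted p = 5.34e-05) and Stat2 (-0.18, SE 0.061, adjusted p = 0.0154) fell. There the calls of B2m and Stat2 were lost with DESeq2, without sh-Lin41 library 3 and without sh-ctrl library 1.

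The chaperonin CCT, another large ring complex with 8 listed subunit genes, was set beside the proteasome. All 8 fell in sh-Lin41, where 42.7% of the abundant genes fell, with a median log2 fold change of -0.22, for example Cct4 (-0.29, SE 0.019, adjusted p = 5.3e-14) and Cct3 (-0.26, SE 0.02, adjusted p = 6.78e-13). This count was also 8 under RLE and total-count scaling, with DESeq2 and on FPKM, and Cct2 lost its call without sh-Lin41 library 1 (-0.032). In sh-Pfkp, Cct2 (0.12, SE 0.018, adjusted p = 1.53e-06) and Cct8 (0.08, SE 0.018, adjusted p = 0.000363) rose and Cct4 (-0.10, SE 0.019, adjusted p = 3.4e-05) and Cct6a (-0.045, SE 0.016, adjusted p = 0.0201) fell, with a median over the 8 of 0.015 that was -0.033 under total-count scaling. Over all genes the sh-Pfkp median went from -0.0050 in the TMM fit to -0.053 with that scaling. The call of Cct8 was lost under total-count scaling and on FPKM, and that of Cct6a with DESeq2 and without sh-Pfkp library 1 or 3 or sh-ctrl library 2 or 3. In the direct comparison sh-Pfkp had all 8 higher, with a median of 0.21. The medians of the 37 proteasome rows in the same comparisons were 0.025 in sh-Pfkp, -0.10 in sh-Lin41 and 0.15 in sh-Pfkp against sh-Lin41.

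The authors' deposited table lists an FDR under 0.05 for 11 of the 40 genes in sh-Pfkp against sh-ctrl, 8 with a positive and 3 with a negative log2 ratio. Over all 22322 rows of the authors' deposited table, 15.1% passed with a positive and 14.2% with a negative ratio. Those rows include 4283 genes with 0 counts in all 9 libraries, and 13158 had enough counts to be tested here, as had 37 of the 40. Shares of all rows are therefore a low base for the 40 genes. For sh-Lin41 against sh-ctrl the authors' deposited table lists 20 of the 40, 2 positive and 18 negative, against 12.1% and 12.6% of all rows. All 11 and all 20 were also called here. Psmb2, Psmd5, Psmd12 and Psmd14 in sh-Pfkp, and Psmb5, Psmc2, Psmc6, Psmd6 and Psmd11 in sh-Lin41, were called here and not in the authors' deposited table. Psmc3ip in sh-Lin41 was the 1 gene of these past 2-fold there.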

How the data were processed

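RNA-seq tables of 9 libraries were used, 3 for each of sh-Pfkp, sh-Lin41 and sh-ctrl. Per the submitters' processing notes, the authors used RSEM, HISAT2, StringTie 1.3.1, fastp 0.18.0 and Bowtie2 2.2.8. For build, annotation and strand setting: not given in the sources used here. The deposited counts are whole numbers per gene, per the file headers, and may be RSEM estimates rounded by the authors. FPKM values per library were deposited beside them, and the deposited log2 ratios and the authors' p-value and FDR were copied from the authors' table. Both tables hold the same sh-ctrl values, and 1 fit took all 9 libraries.

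Counts were tested with edgeR 4.0.16 in R 4.3.3 (filterByExpr by group, TMM, quasi-likelihood F test, Benjamini-Hochberg adjustment over 13158 genes, threshold 0.05), and checked on simulated data. SE is the absolute log2 fold change over the square root of F. Alternatives were DESeq2 1.42.0, limma 3.58.1 on log2(FPKM + 1) and log2(FPKM + 0.1), RLE or total-count scaling, other filters, a minimum fold of 1.2, fits of 6 libraries, a replicate block and the omission of each library.

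The members, the 12 companion and marker lists and the tests were chosen with earlier results of these data known, and the comparison with genes at least as abundant as the lowest constitutive subunit was added after values were seen. Any member may be named. Values by library are given for Psmb5 to Psmb10, for up to 5 higher and 5 lower called members with the largest fold change and a mean of at least 1 CPM per comparison, and for members called in opposite directions in the knockdowns. Of each list, up to 4 called genes with the smallest adjusted p are named per comparison, or the most abundant where none is called; further called genes of short lists were named after their values were seen. Of those eligible, some are left out for length, and some genes of these lists are not reported here.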

Additional observations from a re-analysis of the deposited data

How the results depend on the processing

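Of the 3 comparisons, the 18 to 22 falls in sh-Lin41 and the 27 to 28 higher genes in sh-Pfkp against sh-Lin41 moved little when 1 library was left out, and the rest of the ranges were 2 to 3 rises in sh-Lin41, 7 to 8 rises and 3 to 6 falls in sh-Pfkp against sh-ctrl, and 2 lower genes in sh-Pfkp against sh-Lin41. The medians then ranged from 0.019 to 0.035 (sh-Pfkp), -0.12 to -0.085 (sh-Lin41) and 0.15 to 0.16 (sh-Pfkp against sh-Lin41). Against a minimum fold of 1.2, 1 gene rose and 0 fell in sh-Pfkp, 0 rose and 3 fell in sh-Lin41, and 1 was higher and 0 lower in sh-Pfkp against sh-Lin41. The sh-Pfkp falls numbered 3 with DESeq2. Total-count scaling gave a median of -0.023 in sh-Pfkp, and 5 lower genes with a median of 0.10 in sh-Pfkp against sh-Lin41, and FPKM with a pseudocount of 1 or 0.1 gave -0.015 (both pseudocounts) in sh-Pfkp and 0.099 (both pseudocounts) in sh-Pfkp against sh-Lin41. Psmd5 in sh-Pfkp reversed on FPKM, to 0.0078 with a pseudocount of 1 and 0.0082 with 0.1. The median over all genes moved the same way. In sh-Pfkp it was -0.0050 in the TMM fit, -0.053 under total-count scaling and -0.039 on log2(FPKM + 1). In sh-Pfkp against sh-Lin41 it was -0.013, -0.059 and -0.044 in the same order. The cause of these shifts was not tested.

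Over all genes, total-count scaling gave 3018 higher and 4477 lower calls in sh-Pfkp, against 3721 and 3730 in the TMM fit. No setting moved the median of all genes by 0.1 on the log2 scale. That limit is larger than the median of the 37 proteasome rows in sh-Pfkp (0.025), so smaller shifts still matter there. Under all 18 alternatives other than the minimum fold, 10 of the 15 calls in sh-Pfkp, 18 of 25 in sh-Lin41 and 22 of 30 in sh-Pfkp against sh-Lin41 kept direction and threshold.

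The labels give replicate numbers but no pairing. Across 13158 genes, deviations of same-numbered libraries had r between 7.26e-05 and 0.125 for sh-Pfkp and sh-ctrl, between -0.060 and 0.010 for sh-Lin41 and sh-ctrl, and between -0.083 and 0.0039 for sh-Pfkp and sh-Lin41, and 4, 1 and 0 of 6 libraries correlated best with their own number. The numbers were not taken to pair the libraries. With the replicate block, calls stayed at 8 higher and 7 lower (median 0.025), 3 and 22 (median -0.10), and 28 and 2 (median 0.15), and no member changed its call.

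Depth limits Psmb8, Psmb9 and Psmb11, with at most 6 counts a library.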

Other observations

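The ratio of deposited counts to deposited FPKM was centred on its median over genes in each library. For a few proteasome genes its library values did not overlap between a knockdown and sh-ctrl. For Psma3 the log2 difference of that ratio was 0.043 in sh-Pfkp against sh-ctrl and 0.062 in sh-Lin41 against sh-ctrl, and for Psma2 it was -0.027 in sh-Pfkp and -0.054 in sh-Lin41. For Psma8 it was 0.039 in sh-Pfkp. In size, the sh-Lin41 values of Psma3 and Psma2 stood at percentiles 85.1 and 82.3 of 9936 genes. The sh-Pfkp values of Psma3, Psma8 and Psma2 stood at 78.2, 76.3 and 69.8. Psma7 (0.0028) and Psmd3 (0.0039) also did not overlap in sh-Lin41, so very small differences could lack overlap. Larger differences, of Psmd5 in sh-Pfkp (-0.17, percentile 97.1) and Psmd9 in sh-Lin41 (-0.15, percentile 96.4), overlapped. The share of all genes without overlap is not given, so the lack of overlap is no result about these genes.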
